A study of Mus musculus with 4 samples.

Results

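Expression of 9 genes of central nervous system myelin was examined in mouse septal tissue: Mbp, Mobp, Cnp, Mag, Mog, Mal, Cldn11, Ugt8a and Myrf. They were taken by gene symbol, each had 1 row, and together they made up 9 of the 15409 gene rows in the deposited files. Most of them encode proteins of the sheath itself, while Ugt8a encodes a lipid-synthesising enzyme and Myrf a transcription factor. RNA sequencing compared TCRb-/- mice, in which the T cell receptor has no beta chain, with wild-type (WT) mice. All mice of both genotypes, controls included, underwent 30 min of restraint on each of 3 days, and tissue was taken 1.5 h after the final restraint, so no unstressed group was compared here. There were 4 libraries, 1 of each genotype in experiment 1 and 1 of each in experiment 2, and replicate numbers are the experiments, which the labels call a batch. Each library came from pooled septal tissue of 4 to 5 mice, so a replicate is a pool, and the labels used here give no strain, age or sex. RNA came from a homogenate cleared of debris by centrifugation, so transcripts were sampled from the cleared lysate of all cell types.

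Myelin is the stacked membrane that oligodendrocytes wrap around axons. Its layers are held together by basic proteins at their cytoplasmic faces, sealed by tight junctions and enriched in galactolipids, while adhesion proteins sit at its inner and outer surfaces. Oligodendrocytes begin to make these proteins late in their differentiation, under transcription factors of the SOX and OLIG families and MYRF, and in the septum they ensheath the axons that run through and past the septal nuclei.

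The libraries held between 19988137 and 26210790 reads, and levels are given in CPM, the reads of a gene scaled to a common library total. As a check of the genotypes, Trbc2, part of the targeted receptor chain, had 169 and 86 reads in the WT libraries. Neither TCRb-/- library held any Trbc2 read, and 3 reads, the limit that a count of 0 allows, would be 0.122 and 0.150 CPM there. All 9 myelin genes were well covered, as were Olig1 (326 to 364 CPM) and Sox10 (66.6 to 80.3 CPM), transcription factors of the same lineage. Trpc4 and Zic1, a channel and a transcription factor gene known from the septum and picked for this check alone, had 25.7 to 32.3 and 34.6 to 51.5 CPM. Of 7 marker genes of the Schwann cells of peripheral nerve, 4 were listed, the most abundant being Drp2 (20.5 CPM on average). Pmp2 and Dhh were among those not listed.

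Promoter sequence is shown for the 4 genes whose windows hold words of the kind that MYRF and the SOX factors of this lineage bind. RefSeq windows (GRCm38.p6) were available for 7 of the 9 genes, not for Mbp or Myrf, and each was ended before the annotated gene start. Capitals mark words of SOX type (ACAAAG or ACAATG, or their reverse complements CTTTGT and CATTGT) and of MYRF type (CTGGCAC or CTGGTAC, or GTGCCAG and GTACCAG), and no marked word overlaps another in these windows. The windows are Mobp at chr9:120149492-120149706 on the plus strand, Mag at chr7:30914923-30915172 on the minus strand, Cnp at chr11:100574689-100574903 on the plus strand and Mog at chr17:37023399-37023648 on the minus strand, each written 5′ to 3′ on the strand of its gene.
Mobp: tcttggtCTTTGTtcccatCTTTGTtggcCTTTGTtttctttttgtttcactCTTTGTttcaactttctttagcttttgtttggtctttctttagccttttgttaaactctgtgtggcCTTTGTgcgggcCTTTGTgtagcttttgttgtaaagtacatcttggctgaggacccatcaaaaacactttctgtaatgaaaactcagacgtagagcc
Mag: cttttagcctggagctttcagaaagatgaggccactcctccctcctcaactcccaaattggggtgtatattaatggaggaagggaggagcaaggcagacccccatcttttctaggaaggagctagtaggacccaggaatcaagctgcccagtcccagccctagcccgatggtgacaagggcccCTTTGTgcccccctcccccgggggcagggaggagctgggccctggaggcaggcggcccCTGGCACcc
Cnp: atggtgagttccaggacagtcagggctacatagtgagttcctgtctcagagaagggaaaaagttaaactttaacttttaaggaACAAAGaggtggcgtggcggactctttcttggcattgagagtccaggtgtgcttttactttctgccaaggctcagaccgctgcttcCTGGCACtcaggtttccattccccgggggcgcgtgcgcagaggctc
Mog: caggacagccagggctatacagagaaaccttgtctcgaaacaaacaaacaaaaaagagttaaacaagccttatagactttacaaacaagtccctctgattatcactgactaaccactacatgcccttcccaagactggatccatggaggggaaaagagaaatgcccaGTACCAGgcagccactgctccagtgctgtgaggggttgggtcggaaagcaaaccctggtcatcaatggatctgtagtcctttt
The Mobp window held 6 SOX-type words and no MYRF-type word. Among 32536 distinct RefSeq windows of 250 bases, the members' included, 25.0% held at least 1 SOX-type word and 5.94% at least 1 MYRF-type word. Only 1 window held as many as 6 SOX-type words, that of Mobp itself. The windows of Mobp and Cnp are shown cut to 215 bases. Mag, Cnp and Mog each held 1 MYRF-type word, which began 9, 46 and 83 bases before the end of the window. Mag and Cnp also held 1 SOX-type word each. The windows of Mal, Cldn11 and Ugt8a held neither type. A word is a match of letters and does not show that a factor binds there, and no difference in expression is read from it.

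Mbp encodes myelin basic protein, which joins the cytoplasmic faces of compact myelin. The libraries of replicates 1 and 2 had 3930 and 3371 CPM in TCRb-/- and 3190 and 3493 CPM in WT, and values are given in this order from here on. The highest and lowest libraries were thus both from experiment 1, and the genotypes overlapped. The rank of Mbp among all gene rows was between 2 and 7. The gene (chr18:82475146-82585637 in GRCm38, the build of all positions here) has 16 annotated transcripts, some of which encode the Golli proteins of neurons and immune cells, and values per gene do not separate them. Mobp (chr9:120149707-120181484), a small basic protein of compact myelin, had 1135 and 771 CPM in TCRb-/- and 894 and 794 CPM in WT. Both experiment 2 libraries lay below both experiment 1 libraries, and TCRb-/- replicate 1 stood highest. The Mobp exons share bases with Gm38642, a transcript on the same strand that was not analysed here.

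Cnp (chr11:100574904-100591729) encodes a cyclic nucleotide phosphodiesterase that keeps channels of cytoplasm open within the sheath. Its 4 values were 1313 and 1248 CPM in TCRb-/- and 1273 and 1270 CPM in WT. The highest value was 1.05 times the lowest, and 1.81% of all tested genes had a smaller range. Cnp exons overlap those of Dnajc7 on the opposite strand (212 to 247 CPM), and the strand setting of the counting is not given in the sources used here, so reads from the shared stretch cannot be told apart.

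Over all 9 genes, 6 had a smaller range over the libraries than the median tested gene (0.35 in log2). That median splits all tested genes evenly, so 6 of 9 is near the background. Mal was close to it (49.0% of tested genes had a smaller range), and the comparison was not matched for level. Mag (chr7:30899176-30914873), an adhesion protein of the innermost membrane facing the axon, had 438 and 397 CPM in TCRb-/- and 401 and 419 CPM in WT. Mog (chr17:37010743-37023398), an immunoglobulin-family protein of the outermost surface and a known target of autoreactive T cells, had 191 and 172 CPM in TCRb-/- and 165 and 178 CPM in WT. In both genes TCRb-/- replicate 1 was highest and the genotypes overlapped. Mal (chr2:127633226-127656695), a membrane proteolipid of lipid-rich domains, had 401 and 316 CPM in TCRb-/- and 322 and 348 CPM in WT. The TCRb-/- libraries of Mal enclosed both WT libraries.

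Cldn11 (chr3:31149920-31164324) encodes the claudin of the tight junctions between myelin layers. It had 34.0 and 33.3 CPM in TCRb-/- and 30.1 and 31.3 CPM in WT, and was the single gene of the 9 whose genotypes did not overlap. Over all tested genes, 9.76% had both TCRb-/- libraries above both WT libraries, so 1 of 9 is near that background. From 665 to 837 reads stood behind these values, with exact Clopper-Pearson 95% half-widths of 6.84% to 7.68% of the value. The intervals of the nearest libraries, at 33.3 and 31.3 CPM, overlap. Such intervals cover counting error only and leave out variation between pools. Copies made by amplification carry no molecular identifier and are counted as separate reads, so even counting error may be understated.

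Ugt8a (chr3:125865271-125938619) encodes the galactosyltransferase that makes galactocerebroside, the typical lipid of myelin. It had 70.3 and 64.0 CPM in TCRb-/- and 83.6 and 64.3 CPM in WT, and was the single gene of the 9 that was highest in WT replicate 1. Myrf (chr19:10208272-10240748) encodes a membrane-anchored transcription factor that is cut to release the part that enters the nucleus. It had 34.6 and 24.8 CPM in TCRb-/- and 34.0 and 21.7 CPM in WT, on 485 to 890 reads. For both genes the experiment 2 libraries lay below the experiment 1 libraries whatever the genotype. Myrf had the widest range of the 9, its highest value being 1.59 times its lowest, and 83.8% of tested genes had a smaller range.

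**Figure D1:**
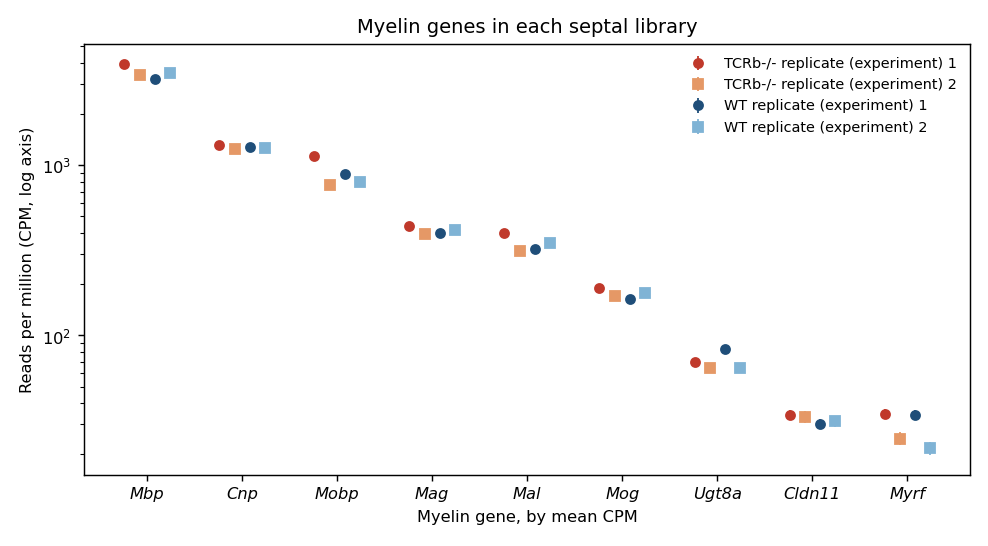
Normalised read count (CPM, log axis) of the 9 myelin genes in each of the 4 libraries, ordered by mean CPM; circles are experiment 1, squares experiment 2, and bars, mostly smaller than the symbols, are exact 95% counting intervals. Values run from 3930 CPM for Mbp to 21.7 CPM for Myrf, and Mobp, Cnp, Ugt8a and Myrf have their squares below their circles in both genotypes.

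Per length, on the scale of CPM per kb of annotated exon (GENCODE M21), Mbp was highest at 413 ± 37.2 and Cnp followed at 351 ± 7.46 (SD, n = 4 libraries for each gene). Mobp had 131 ± 24.3 and Mal 125 ± 14.0, and the libraries of this pair overlapped. Mog had 103 ± 6.53 and Mag 102 ± 4.61, which also overlapped. Next came Cldn11 at 17.2 ± 0.960 and Ugt8a at 15.6 ± 2.02, which overlapped too. Myrf was lowest at 3.36 ± 0.759. The other neighbours in this order (Mbp and Cnp, Cnp and Mobp, Mal and Mog, Mag and Cldn11, Ugt8a and Myrf) did not overlap in any library. With the length of the principal transcript in place of all exons, Mobp moved above Cnp, Mag above Mal and Mog, and Ugt8a above Cldn11, with the libraries of Mobp and Cnp and those of Ugt8a and Cldn11 overlapping, so that part of the order depends on which transcripts are made.

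The 9 genes together took 0.755% and 0.640% of the reads of TCRb-/- replicates 1 and 2 and 0.639% and 0.662% of those of WT. TCRb-/- replicate 1 was thus the high library, and the other libraries lay close together. It was the highest library for 8 of the 9 genes, against 29.1% of all tested genes. In bulk tissue, a different number of oligodendrocytes and a different amount of RNA per oligodendrocyte cannot be told apart. Of the 67 tested genes of 5 further oligodendrocyte lists, 32 were highest in this library. The 46 of them on the mature oligodendrocyte lists summed to 5193 and 5070 CPM in TCRb-/- and 4984 and 5126 CPM in WT. Also highest in this library were 10 of 10 marker genes of striatal projection neurons, the neurons of the region beside the septum. Their summed level was 3400 CPM in TCRb-/- replicate 1, 652 in TCRb-/- replicate 2, and 3048 and 1670 in WT replicates 1 and 2. These striatal sums were higher in experiment 1 in both genotypes. Their part in the myelin values was not tested.

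No myelin gene differed by genotype in the test. The test was limma on log2(CPM + 1) over 13912 genes whose mean reached 1 CPM, adjusted by Benjamini-Hochberg over all of them and called under 0.05. All 9 had an adjusted limma p of 1.00, and 0 of 9 had an unadjusted p under 0.05. The background was 0% of all tested genes called, and 0.309% with an unadjusted p under 0.05. An exact permutation test of 2 libraries against 2 could not give a p below 0.333. All 9 genes passed the filter on the mean.

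Each difference, TCRb-/- minus WT in log2(CPM + 1), was smaller than its standard error (SE) in this fit, though for Cldn11 the 2 were close (0.129, SE 0.135). Mobp had the highest, 0.15 (SE 0.22, 95% interval -0.39 to 0.69), from means of 953 ± 258 and 844 ± 70.4 CPM (SD, n = 2 each). Mbp differed by 0.12 (interval -0.29 to 0.54), with means of 3650 ± 395 and 3341 ± 215 CPM. The narrowest intervals belonged to Mag, at 0.02 (-0.29 to 0.34), to Mog, at 0.08 (-0.24 to 0.40), and to Cnp, at 0.01 (-0.32 to 0.34). Mal differed by 0.09 (-0.31 to 0.49) and Cldn11 by 0.13 (-0.21 to 0.47). Ugt8a was the single gene with a negative value, -0.13 (-0.55 to 0.30), and Myrf had the widest interval, 0.10 (-0.58 to 0.79), within which all 9 intervals lay. The median of the 9 was 0.09, against 0.00 over all tested genes, and without TCRb-/- replicate 1 it was -0.05.

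Since the labels pair the libraries by experiment, the test was also run with the experiment as a block. The differences stayed the same and their errors became smaller, Mobp having 0.15 with an SE of 0.097. With this block the adjusted limma p of the 9 genes lay between 0.890 (Mobp) and 0.994 (Cnp), and again 0 of 9 had an unadjusted p under 0.05, against 5.64% of all tested genes. With the block 0.0144% of tested genes were called.

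Within experiment 1, the TCRb-/- library was above the WT library by 0.34 for Mobp, 0.31 for Mal, 0.30 for Mbp, 0.21 for Mog, 0.17 for Cldn11 and 0.13 for Mag (log2 difference). Cnp and Myrf differed by 0.04 and 0.03, and Ugt8a by -0.25. In experiment 2 the same order of genes gave -0.04, -0.14, -0.05, -0.05, 0.09 and -0.08, then -0.03 for Cnp, 0.18 for Myrf and -0.01 for Ugt8a. Mobp in experiment 1 came close to the 95th percentile of all tested genes, 0.35. Higher in TCRb-/- in experiment 1 and lower in experiment 2 were 6 of the 9 (Mbp, Mobp, Cnp, Mag, Mog and Mal), against 24.6% of all tested genes, and the sign differed in either direction for 48.4%. The median of the 9 was 0.17 in experiment 1 and -0.04 in experiment 2. With 1 library per genotype in each experiment there are no residual degrees of freedom, so the interaction of genotype and experiment could not be tested.

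**Figure D2:**
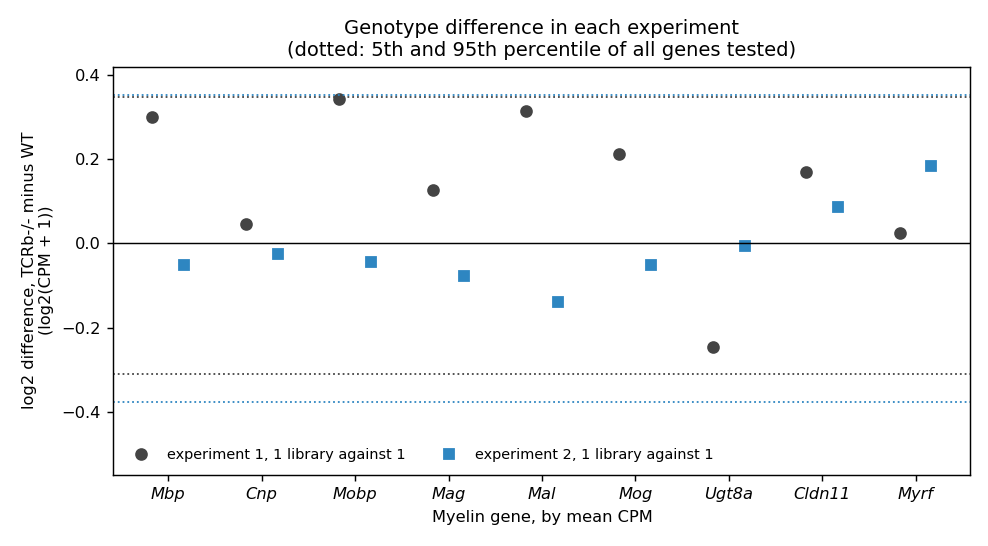
Log2 difference, TCRb-/- minus WT, in log2(CPM + 1), for each myelin gene in experiment 1 (circles) and experiment 2 (squares), each 1 library against 1 with no error bar; dotted lines are the 5th and 95th percentiles of all tested genes in each experiment. In experiment 1 the genes lie between -0.25 (Ugt8a) and 0.34 (Mobp), and in experiment 2 between -0.14 (Mal) and 0.18 (Myrf).

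Between experiments, 2 of the 9 genes changed, and both fell in experiment 2: the transcription factor gene Myrf and the compact myelin gene Mobp. Over all tested genes limma called 23.7%, with 14.7% lower and 8.95% higher in experiment 2, so 2 of 9 lower is near the background. The share of higher calls among all calls was 37.8%, and 50.6% of 3227 calls under quantile normalization. This comparison sets 1 TCRb-/- and 1 WT library against 1 of each. The labels do not say what set the experiments apart.

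Myrf fell by 0.54 on the log2 scale (SE 0.10, 95% interval -0.78 to -0.31, adjusted limma p 0.0110), with -0.47 in TCRb-/- and -0.62 in WT. Its adjusted p ran from 0.00884 to 0.0505 over the alternatives with all libraries. The call was lost without a variance trend (adjusted p 0.0505) and without TCRb-/- replicate 1 (0.0516). Mobp fell by 0.36 (SE 0.11, interval -0.62 to -0.11, adjusted limma p 0.0470), with -0.56 in TCRb-/- and -0.17 in WT. The Mobp call was less firm. It was lost under median-of-ratios scaling (adjusted p 0.0589), without a variance trend (0.130), without TCRb-/- replicate 1 (-0.19, 0.108) and without TCRb-/- replicate 2 (-0.34, 0.0845). Over the 4 omissions of a library the Mobp difference ran from -0.54 to -0.19.

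With the experiment and genotype in 1 fit (the replicate block), Myrf and Mobp were again the 2 genes called (adjusted limma p 0.00884 and 0.0313), against 24.7% of all tested genes.

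Ugt8a differed by -0.25 (interval -0.47 to -0.04, adjusted limma p 0.0837) and did not pass, although it did without TCRb-/- replicate 1 (-0.38, adjusted p 0.0404), while without WT replicate 1 it was -0.13 (adjusted p 0.338). The other sheath genes did not pass. Mal differed by -0.12 (-0.36 to 0.13), from -0.35 in TCRb-/- and 0.11 in WT, and Mbp by -0.05 (-0.30 to 0.21), from -0.22 in TCRb-/- and 0.13 in WT. The genotypes thus went opposite ways in both. Cldn11 differed by 0.01 (-0.22 to 0.24). Mag, Cnp and Mog differed by -0.04 (-0.20 to 0.12), -0.04 (-0.20 to 0.12) and -0.02 (-0.21 to 0.17), and the last turned to 0.01 under median-of-ratios scaling. The difference between Myrf and these genes was not tested, and nothing is read from the promoter words for any of them.

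By level, the experiments did not overlap for 4 genes, Mobp, Cnp, Ugt8a and Myrf, each lower in experiment 2, against 37.2% of all tested genes. For Cnp the nearest libraries, WT replicates 1 and 2 at 1273 and 1270 CPM, had overlapping counting intervals. So had the nearest libraries of Ugt8a, TCRb-/- replicate 1 at 70.3 CPM and WT replicate 2 at 64.3 CPM. The median of the 9 was -0.05, against -0.03 over all tested genes. Gene length moved with the difference between experiments: over 13552 genes with an annotation, Spearman's rho of the difference with exon length was -0.398, given as a description across genes of the same libraries. Myrf (8.56 kb), Mbp (8.47 kb) and Mobp (6.85 kb) have the longest exon total of the 9, the median gene having 4.46 kb. This total merges all annotated transcripts. By principal transcript Mbp (0.638 kb) and Mobp (1.54 kb) are the shortest of the 9, Myrf has 3.34 kb and Ugt8a is the longest (3.76 kb). The order by length thus depends on which transcripts are made. Myrf and Mobp fell and Mbp did not pass the test. The part of length in these values was not tested.

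**Figure D3:**
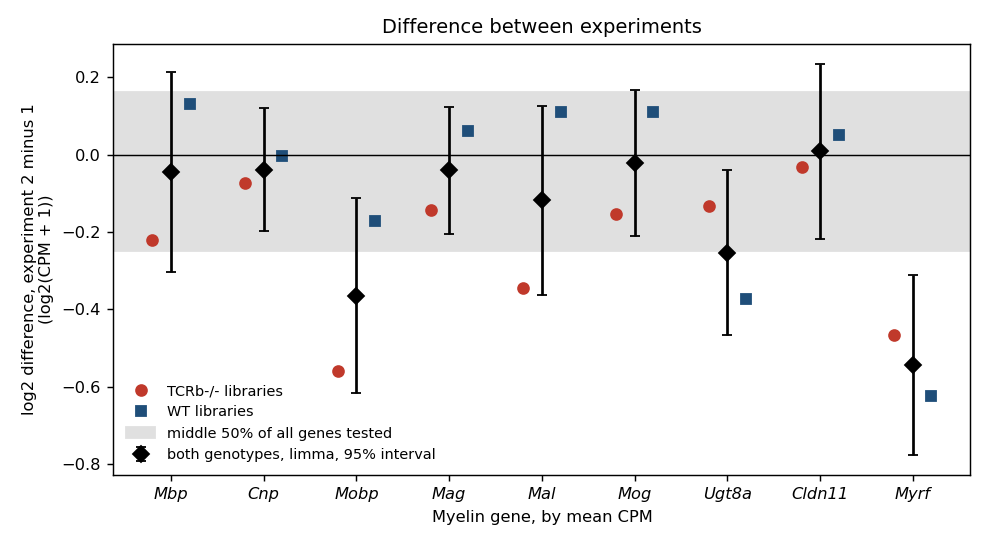
Log2 difference, experiment 2 minus experiment 1, in log2(CPM + 1), for each myelin gene: circles for the TCRb-/- libraries, squares for the WT libraries, diamonds with 95% intervals for both genotypes in limma, and a grey band for the middle 50% of all tested genes (-0.25 to 0.16). Myrf at -0.54 and Mobp at -0.36 lie below the band, Ugt8a at -0.25 lies at its lower edge, just outside, and 6 of the 9 diamonds lie between -0.12 and 0.01.

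Other oligodendrocyte genes were set beside the 9. Of 67 tested genes in 5 lists, 0 differed by genotype with or without the block, and their median genotype difference was 0.02. Between experiments 2 rose and 12 fell, with a median of -0.10, against 8.95% higher and 14.7% lower and a median of -0.03 over all tested genes. The counts of the single lists below have the same background. Genes named below because they were called were chosen after their values were seen.

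Of 12 genes of junctions, paranodes and the cell surface, 3 fell in experiment 2 and none rose (2 fell with the replicate block), against 14.7% lower and 8.95% higher over all tested genes. They were Tspan2, a tetraspanin (-0.28, adjusted limma p 0.0233), Cntn2, an adhesion protein beside the node (-0.40, 0.0129), and Gjc3, a connexin (-0.25, 0.0460, and 0.0540 with the replicate block). Ermn, a cytoskeletal protein of the outer sheath, had 156 and 145 CPM in TCRb-/- and 175 and 148 CPM in WT and was not called. Cd9, a tetraspanin, had 89.7 and 97.2 CPM in TCRb-/- and 80.7 and 98.5 CPM in WT, the highest difference of the list (0.20), and Nkain1, at 2.40 to 3.99 CPM, the lowest (-0.47). Neither was called. By genotype this list ran from -0.10 (Ermn) to 0.07 (Hapln2, a link protein of the node).

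Enzymes of myelin lipid synthesis are the group to which Ugt8a belongs by role. Of 10 tested, 1 rose and none fell in experiment 2. It was Aspa, which frees acetate for lipid synthesis, at 57.8 and 83.8 CPM in TCRb-/- and 66.3 and 75.0 CPM in WT (0.35, adjusted limma p 0.0319). Degs1 and Cers2, which act in ceramide synthesis, had 150 to 179 and 128 to 142 CPM and were not called. Ugcg, which makes glucosylceramide from the same substrate as Ugt8a, had the lowest difference between experiments (-0.20) and was not called. The genotype difference ran from -0.06 (Elovl7, a fatty acid elongase) to 0.19 (Sptlc2, of the first step of sphingolipid synthesis).

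Of 24 other genes of mature oligodendrocytes, 5 fell and none rose, against 14.7% lower and 8.95% higher over all tested genes. The lowest was Plekhh1, at 50.8 and 31.3 CPM in TCRb-/- and 51.0 and 34.4 CPM in WT (-0.62, adjusted limma p 0.00595), and its experiments did not overlap. The others were Adamts4, a secreted protease (-0.57), Tmem63a, an ion channel (-0.34), Anln, a cytoskeletal scaffold (-0.33), and Gpr37, a receptor (-0.30). The most abundant of the list, Car2 (carbonic anhydrase) and Plekhb1, had 694 to 785 and 455 to 512 CPM and were not called. The highest difference was 0.21 (Ppp1r14a), also not called. By genotype the list ran from -0.17 (Tmem88b) to 0.12 (Pllp, a membrane proteolipid related to Mal).

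Transcription factors of the lineage are the group of Myrf. Of 9 tested, 3 fell and none rose in experiment 2, with a median of -0.33 (-0.03 over all tested genes, of which 14.7% were called lower). Zeb2, a repressor needed for oligodendrocyte maturation, had 35.2 and 23.7 CPM in TCRb-/- and 37.1 and 23.4 CPM in WT (-0.60, adjusted limma p 0.00678), and like Myrf, and 37.2% of all tested genes, it had both experiment 2 libraries below both experiment 1 libraries. Sox8, a relative of Sox10, fell by 0.47 and St18 by 0.36. Sox10 itself had 70.4 and 66.6 CPM in TCRb-/- and 80.3 and 73.4 CPM in WT (-0.10, adjusted limma p 0.426), and Olig1 differed by 0.05. By genotype Olig1 had the highest value (0.05) and Myt1 the lowest (-0.21). Zeb2 is also made by other brain cells, so its level is not that of oligodendrocytes alone.

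Of 12 genes of oligodendrocyte precursors, 1 rose and 1 fell. Lhfpl3 had 44.4 and 60.3 CPM in TCRb-/- and 44.6 and 56.8 CPM in WT (0.39, adjusted limma p 0.0133). Gpr17, a receptor of precursors that have begun to differentiate, had 27.7 and 16.9 CPM in TCRb-/- and 26.3 and 17.4 CPM in WT (-0.63, adjusted limma p 0.00779). Cacng4 and Ptprz1, the most abundant of this list, had 57.0 to 77.8 and 57.1 to 64.6 CPM and were not called. Pdgfra, the growth factor receptor of precursors, had 15.1 to 20.0 CPM and the highest genotype difference of the list (0.17), and Ptprz1 the lowest (-0.13).

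Markers of neighbouring regions differed between experiments in both directions. Striatal neuron markers fell in 10 of 10 cases (median -1.60) and those of cortex and hippocampus neurons in 7 of 8 (-1.47), while 9 of 10 choroid plexus markers rose (1.13). The shares over all tested genes were 14.7% called lower and 8.95% called higher. The most abundant of these lists were Ppp1r1b (1022 CPM on average), Slc17a7 (92.2) and Ttr (2228). Summed choroid plexus markers had 1377 and 4859 CPM in TCRb-/- and 761 and 2853 CPM in WT, and those of cortex and hippocampus neurons 230 and 49.5 CPM in TCRb-/- and 289 and 51.1 CPM in WT. The part of these in the levels of the myelin genes was not tested. By genotype, the medians were -0.57 for striatal, -0.19 for cortex and hippocampus and 0.56 for choroid plexus markers, and 0 genes of the 3 lists were called without the block. With the replicate block 1 was called, the choroid plexus gene Ttr (0.85, adjusted limma p 0.0323). In each experiment the TCRb-/- library was above the WT library for 10 of 10 choroid plexus genes (medians 0.51 and 0.60). Of all 13912 tested genes, 7179 were higher in TCRb-/- in experiment 1 and 7080 in experiment 2.

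For markers of general cell types, calls between experiments are to be read against the 23.7% of all tested genes called. Of 10 pan-neuronal genes 1 rose (Stmn2) and 2 fell (Rbfox3 and Syt1), with a median of 0.00, and the most abundant, Snap25 (3661 CPM on average), was not called. Of 10 astrocyte genes 1 fell, Slc1a2 (-0.32), with a median of 0.04, and the most abundant, Aldoc (1518 CPM), was not called. Of 8 microglia genes 1 fell, Cx3cr1, with a median of -0.08. Of 5 endothelial genes tested none was called (median -0.35), Esam being the most abundant (4.29 CPM). Of 3 Schwann cell genes tested 1 fell, Drp2 (20.5 CPM, -0.69, adjusted limma p 0.00815). The median over all 3 was 0.21. By genotype none of these genes was called, with medians of -0.07, 0.07, 0.05, 0.27 and 0.03 in that order.

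**Figure D4:**
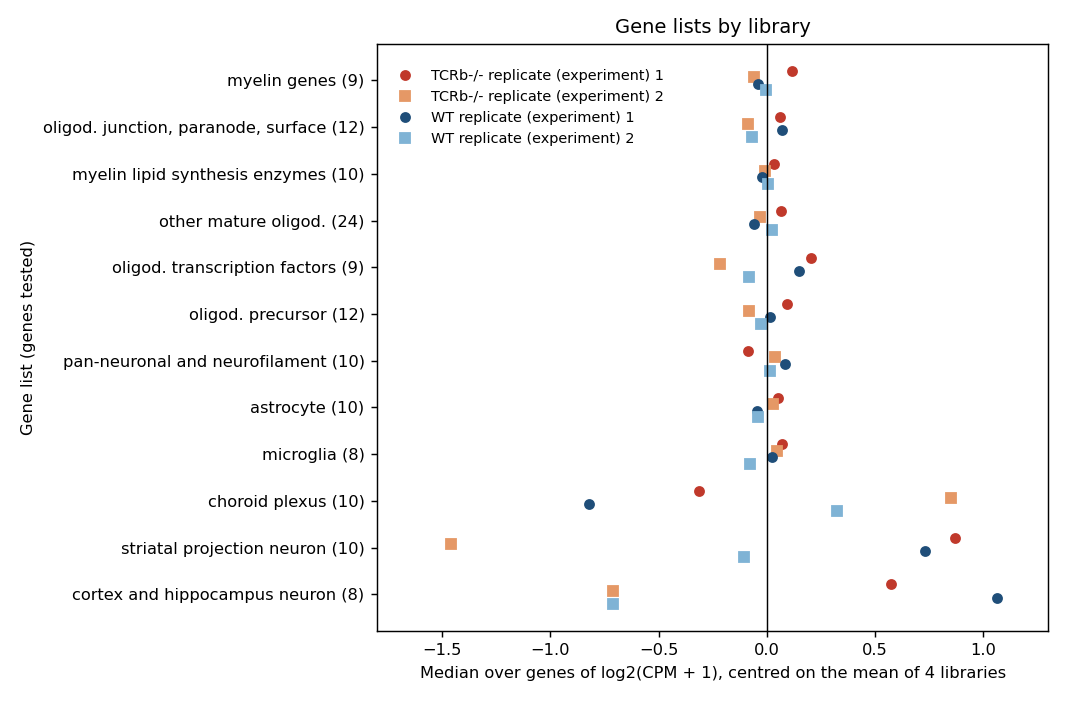
Median over the genes of each list of log2(CPM + 1), centred on the mean of the 4 libraries, for each library; circles are experiment 1, squares experiment 2, and the number of tested genes is in brackets. The myelin genes lie between -0.06 (TCRb-/- replicate 2) and 0.12 (TCRb-/- replicate 1), while the striatal, cortex and hippocampus, and choroid plexus lists spread by experiment.

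The 9 genes had a mean centred profile of 0.15 and -0.09 in TCRb-/- replicates 1 and 2 and 0.01 and -0.07 in WT. Among 9812 other genes whose mean reached 10 CPM, the nearest to it over the 4 libraries by root mean square distance in log2 were Cmtm6 (0.00842), Raver1 (0.00874), Echdc1 (0.00898), Xpo1 (0.00955) and Timm44 (0.00991). None of these is on an oligodendrocyte list used here. The 9 genes themselves lay farther from their own mean, from 0.0629 (Mag) to 0.210 (Myrf), and Mag would rank 796 in that order. The nearest genes were picked by this distance and the 9 were not, so whether the 9 share a profile cannot be read from it. Over 4 libraries such a profile has few degrees of freedom.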

How the data were processed

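Per the labels, each file holds 1 library. The deposited values are log2 values, and the numbers themselves show the log2 of CPM with 0.5 added to the reads and 1 to the total. The reads were recovered as whole numbers for 100% of values (tolerance 0.001 reads), over 15426 listed rows, of which 17 were spike-ins and left out. Per the submitters' processing notes, HISAT2 2.1.0, SAMtools 1.3, HTSeq 0.9.1, R 4.0.5, limma 3.46.0 and build mm10 were named. Not given in the sources used here are the annotation, the strand setting and the rule for listing rows.

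From the reads, CPM of the library total was computed and tested as log2(CPM + 1), which understates changes of low genes, with limma 3.58.1 in R 4.3.3 (mean-variance trend, two-sided), for genotype or experiment as the single term. Kept were genes whose mean reached 1 CPM. The test was checked on simulated data that held no difference between experiments, so the check does not cover that part of the spread. Each replicate is a pool of mice, and no 2 pools share both genotype and experiment. The spread behind the genotype p-values therefore includes the difference between experiments, unless the block is used. The spread behind the experiment p-values likewise includes the difference between genotypes. Same-numbered libraries share an experiment per the labels, and their deviations from the genotype means correlated at 0.72 across genes. Alternatives were no trend, the replicate block, leaving out each library, quantile normalization, median-of-ratios scaling, the log2 values as deposited, a pseudocount of 5, a minimum of 10 CPM and no filter. Other steps used Python 3.11.15, scipy 1.17.1, pandas 2.3.3, matplotlib 3.10.9 and numpy 2.4.6. Gene positions are from GENCODE M21 on GRCm38.

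The 9 genes and the 13 further lists were chosen with earlier results of these data known. Named by rule were all 9 genes, the 2 most abundant genes of each oligodendrocyte list and those with its highest and lowest differences, the most abundant gene of each cell type list, the 5 nearest profiles and Trbc2. The most abundant gene of 1 cell type list is not reported here.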

Additional observations from a re-analysis of the deposited data

Results flagged for a closer look

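The genotype difference of 6 genes had opposite signs in the experiments, each with 1 library against 1, and the difference between experiments was not tested. As log2 differences, TCRb-/- minus WT, Mbp had 0.30 in experiment 1 and -0.05 in experiment 2 (0.35 apart). Mobp had 0.34 and -0.04 (0.39 apart). Both encode basic proteins of compact myelin. The genes of surface proteins, Mog and Mag, had 0.21 and -0.05 (0.26 apart) and 0.13 and -0.08 (0.20 apart). Cnp had 0.04 and -0.03 (0.070 apart), and Mal 0.31 and -0.14 (0.45 apart). Over all tested genes the sign differed between experiments for 48.4%.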

How the results depend on the processing

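With all libraries kept, 140 of 144 values of the 9 genes under an alternative kept their direction and their side of the threshold. Those that did not were Mog between experiments, which turned to 0.011 under median-of-ratios scaling, and calls lost between experiments for Mobp (-0.33 under median-of-ratios scaling and -0.36 without a trend) and Myrf (-0.54 without a trend). The causes were not tested. No filter, a minimum of 10 CPM, no trend and the replicate block leave each log2 difference of these genes unchanged by construction. Direction could not change under them, only the side of the threshold. By genotype the lowest adjusted limma p over the alternatives was 0.890 (Mobp), far from the threshold. The replicate block changed no call of the 9 genes, and over all genes gave 2 calls by genotype in place of 0, and 3437 in place of 3292 between experiments. Without a trend there were 629 calls between experiments. The median of the 9 genes between experiments was -0.12 under quantile normalization.

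Leaving out 1 library leaves 1 sample in a group, assumed to vary like the other, and unbalances the genotypes and experiments. Of 72 values of the 9 genes, 53 kept direction and side. Calls by genotype ranged from 0 to 47 (47 without TCRb-/- replicate 1, 1 without TCRb-/- replicate 2), and between experiments from 1406 to 3390 (1406 without TCRb-/- replicate 1, 1823 without TCRb-/- replicate 2, 1637 without WT replicate 1). The median of the 9 genes ranged from -0.046 (without TCRb-/- replicate 1) to 0.16 by genotype and from -0.13 (without WT replicate 1) to 0.023 between experiments. By genotype Mbp ranged from 0.014 to 0.24 and Mog from 0.0038 to 0.16, and the values that changed sign ranged from -0.046 to 0.095 for Mag, -0.13 to 0.43 for Mobp, -0.027 to 0.046 for Cnp, -0.086 to 0.26 for Mal, -0.31 to 0.060 for Ugt8a and -0.21 to 0.42 for Myrf. Between experiments they ranged from -0.20 to 0.11 for Mbp, -0.13 to 0.085 for Mog, -0.10 to 0.023 for Mag, -0.28 to 0.039 for Mal and -0.076 to 0.095 for Cldn11. Depth limits Myrf and Cldn11 most, with counting half-widths of up to 9.01% and 7.68% of a value.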
